A study of Arabidopsis thaliana with 8 samples.

Results

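Plants heterozygous for T-DNA insertions in both TCP14 and TCP15 (HET) were compared with a line carrying a T-DNA insertion in TCP14 (T13) across the inflorescence transcriptome of *Arabidopsis thaliana*. The comparison took the 2 HET and the 2 T13 arrays of the 8 arrays in the series, each hybridised with RNA from Ws inflorescences of growth stage 6.0 grown in compost at 18 °C with 16 h of light. HET plants are heterozygous at AT1G69690 (TCP15) and at AT3G47620 (TCP14), T13 plants carry an insertion in AT3G47620 alone, T14 plants carry one in AT1G69690 alone, and CON is the control, whose labels name no modification. T-DNA is transferred by Agrobacterium and often inactivates a gene by integrating within it. Whether T13 and T14 are homozygous is not stated, and there is 1 line per insertion, so the insertion and the rest of the line's background cannot be told apart. The 10 plants pooled per sample are named for the series as a whole. The labels leave unsaid if separate plant pools lay behind a group's 2 arrays, and call HET replicate 2 a repeat, so p-values here measure only spread among arrays and that spread may be technical. Of 22746 probe sets other than controls, 15045 passed a filter on dim signal, and 8286 of these were annotated to 1 gene. Within them, 3 kinds of gene were sought: genes lower in T13 than CON that lay lower still in HET, genes shifted in T13 at which HET lay back toward CON, and genes apart from CON in HET at which T13 lay near CON.

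TCP14 and TCP15 encode class I TCP proteins, plant transcription factors that act on cell proliferation and growth in young organs and partly overlap in function. An inflorescence holds floral organs of many ages, and its anthers contribute transcripts of the tapetum, the secretory layer that feeds young pollen and builds its coat, and of pollen itself. Late pollen stores transcripts for pectin-modifying enzymes, small secreted peptides and receptor kinases that shape and guard the wall of the pollen tube. In whole inflorescences, fewer cells of a type and less RNA per cell cannot be told apart.

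The TCP15 intensity was 188.2 and 221.8 on the HET arrays, against 205.9 and 204.1 on the T13 arrays, 86 and 68.8 in T14, and 198.2 and 244 in CON. HET and T13 overlapped at TCP15 (log2 difference -0.00, SE 0.2), so its level does not check the TCP15 part of the HET label. TCP14 was not analysed here because no probe set was named for it. The HET arrays differed from the T13 arrays in 2 measures of the arrays themselves. The GAPDH control, as its 5′ signal over its 3′ signal, was 0.345 and 0.127 in HET, against 0.0760 and 0.0639 in T13, and the scanner background average was 86.81 and 83.50 in HET, against 98.49 and 111.86 in T13. HET replicate 1 also had the lowest 25S rRNA control signal, 199.2. Rank correlations were 0.966 between the HET arrays, 0.953 between the T13 arrays and 0.941 to 0.963 across the 2 groups, so the groups did not separate by this measure. As a check of the tissue, the 1 named probe set of the floral organ identity list, UFO, was near 0 in every group (2.4 and 3.5 in HET, 6.3 and 3.8 in T13) and did not pass the filter, whereas all 3 named gynoecium and ovule genes passed.

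Pollen pectin genes, a list chosen with results of these data known, had lower values in HET than in T13 (17 of 17). Transcripts of the chloroplast genome did too (65 of 69), but their median of -0.61 was 0.13 with the GAPDH ratio as covariate. Higher values were seen at 6 of 9 tapetum and 7 of 10 expansin genes, beside 6382 of all 15045 kept probe sets. The tapetum median of 0.41 was 0.08 without HET replicate 1, and the expansin median of 0.42 was 0.07 with the GAPDH covariate. No single probe set passed the test between HET and T13. With log2(intensity + 16) fitted in limma over all 8 arrays, 0 of 15045 probe sets (0.0%) had a Benjamini-Hochberg adjusted p under 0.05 for HET minus T13, and the smallest limma adjusted p was 0.168. At an unadjusted p under 0.05, 908 probe sets (6.04%) were lower in HET and 583 (3.88%) were higher, where chance gives 752 in all. The HET mean was below the T13 mean at 57.6% of probe sets, and both HET arrays lay below both T13 arrays at 3963 probe sets (26.3%) and above both at 2530 (16.8%). A log2 difference of at least 1 was seen at 84 probe sets lower in HET and 78 higher.

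This lean toward lower values in HET turned with the scaling. The median HET minus T13 over all kept probe sets was -0.06 as deposited and 0.06 after median centring, which gave 457 probe sets lower and 1062 higher at an unadjusted p under 0.05, and quantile normalization gave 678 lower and 670 higher. Without HET replicate 1 the counts were 299 lower and 126 higher, and without T13 replicate 2 they were 533 and 332. With the log2 GAPDH ratio as a covariate they were 135 and 76. In the GAPDH ratio both HET arrays lay above both T13 arrays, and in the scanner background below them. Group and these measures therefore cannot be fully told apart. HET replicate 1 had the highest GAPDH ratio, so that covariate and leaving out HET replicate 1 are not separate checks. The part of the GAPDH ratio and of the scanner background in the differences between HET and T13 was not tested beyond these fits.

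**Figure D1:**
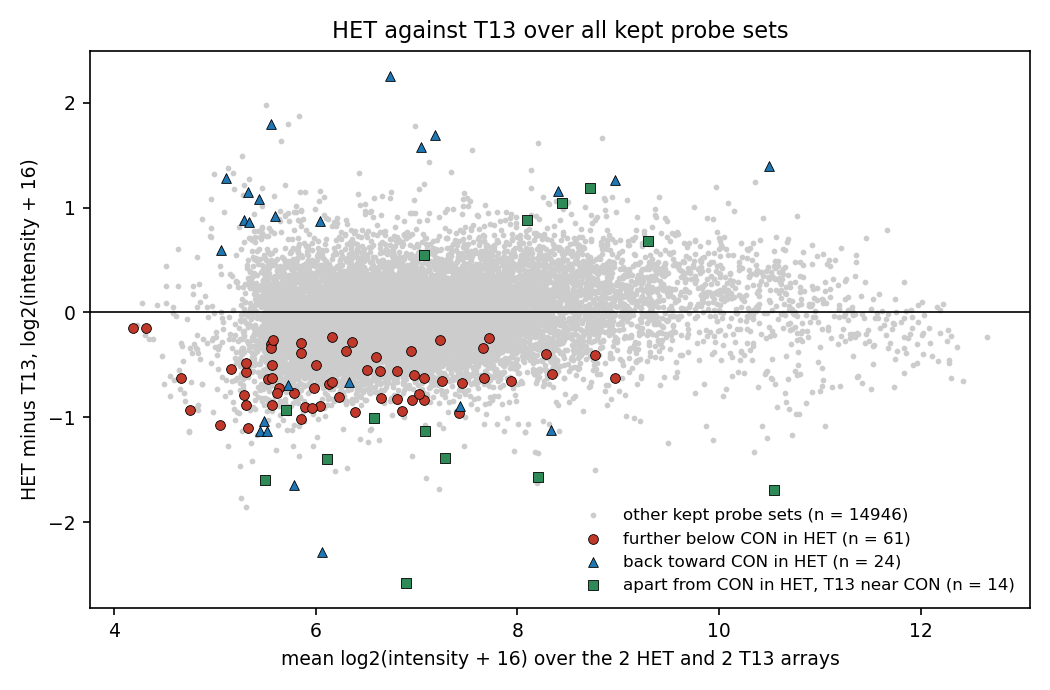
HET minus T13 on the log2(intensity + 16) scale (y axis) against the mean over the 2 HET and 2 T13 arrays on the same scale (x axis) for 15045 kept probe sets. Grey points are other probe sets, and colours and shapes mark the 61 further below CON in HET, the 24 back toward CON in HET and the 14 apart from CON in HET with T13 near CON; differences ran from -2.58 to 2.26.

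Among single genes, 109 were lower and 49 higher in HET than in T13 at an unadjusted p under 0.01 with the 4 arrays apart (over all probe sets, 1.3% and 0.811%). AT1G54070, of the dormancy and auxin associated family, had intensities of 7 and 2.6 in HET, against 42.8 and 69.1 in T13, with 99.1 and 146.4 in T14 and 200.1 and 121.2 in CON. The groups were ordered at this gene, with the HET mean at 2.99% of the CON mean, T13 at 34.8% and T14 at 76.4%. HET minus T13 was -1.77 (SE 0.285), which did not pass (limma adjusted p = 0.168). AT2G15880, a leucine-rich repeat extensin of the pollen tube wall, read 6.3 and 7.4 in HET and 36 and 60.7 in T13, and the T14 arrays (76.6 and 98.5) overlapped CON (105.2 and 73.6). Its HET minus T13 was -1.47 (SE 0.265, limma adjusted p = 0.236). Against CON, AT1G54070 and AT2G15880 fell in HET (limma adjusted p = 0.000224 and 0.00101), whereas in T13 neither passed (limma adjusted p = 0.110 and 0.699).

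Another group of lower genes had T14 low as well. AT1G23960 had 3.9 and 5.7 in HET, against 68.6 and 51.2 in T13 and 100.3 and 100.2 in CON, and its T14 arrays read 2.5 and 5.7. HET and T14 lay at the floor of the scale there, and HET minus T13 was -1.86 (SE 0.295, limma adjusted p = 0.168), the only value of a named gene to pass when the intensity trend was left out of the variance prior. DI21, a drought-induced gene, had 24.7 and 24 in HET, against 53.4 and 121.1 in T13, 17.3 and 13 in T14 and 93.7 and 89.6 in CON. Of the 109 lower genes, 7 had T14 at least 1 log2 unit below CON, while over all kept probe sets 0.545% did. Of those 7, 5 lie on chromosome 1, the chromosome of TCP15, which carried 26.4% of the kept genes. The remaining genes of the 10 largest were AT5G01080, ndhF, 2A6, AT1G65370, AT5G40450 and AT2G23700. AT5G40450 had 51.4 and 176.1 in HET and 310.6 and 214.8 in T13, a difference of -1.27 that shrank to -0.52 without HET replicate 1.

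Among the higher genes, AT2G22100 had 189.6 and 169.5 in HET, against 61 and 80.6 in T13, 97.6 and 59.7 in T14 and 115.2 and 65.4 in CON, so both HET arrays stood above the other 6. Its difference from T13 was 1.18 (SE 0.267, limma adjusted p = 0.455) and it kept its size with the GAPDH covariate, at 1.19. AT5G62210 had 821.7 and 303.2 in HET and 181.6 and 128.3 in T13. AT2G03740, of the late embryogenesis abundant family, had 110.8 and 46.3 in HET and 26.5 and 3.2 in T13. HET replicate 1 was the higher HET array at both genes, and all 4 arrays were apart by group. With the GAPDH covariate, the difference was 0.16 in place of 1.61 at AT5G62210, 0.28 in place of 1.64 at AT2G03740, and 0.22 in place of 1.80 at SDRB, a short-chain dehydrogenase. AT2G04570, of the GDSL lipase family, had 517.9 and 364.2 in HET, against 210.6 and 119.9 in T13, a difference of 1.36 that was 0.76 under that covariate. AT5G17780 had 46.6 and 40.2 in HET and 6.4 and 13.2 in T13, with CON between them at 26.4 and 32.4.

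The first class held genes that fell in T13 and lay lower still in HET. T13 was called lower than CON at 88 probe sets (0.585%) and higher at 1 (0.00665%), and HET was called lower at 154 (1.02%) and higher at 7 (0.0465%). Of the 88, both HET arrays lay below both T13 arrays at 61, above both at 8, and the arrays overlapped at 19. The 61 made up 69.3% of the 88, read beside the 26.3% of all kept probe sets with HET below T13. T13 and CON values chose these members and T13 enters both differences, so no test of the class is given. Median levels in the class were 15.4% of CON in HET, 28.4% in T13 and 82.4% in T14, and the median HET to T13 ratio was 0.552. The rule compared no T14 level, though the T14 arrays entered the filter and the shared estimate of spread. T14 minus CON also uses the CON arrays that helped to choose the members. T14 was within 0.5 log2 units of CON at 48 of the 61, a smaller share than the 91.4% over all kept probe sets. It was at least 1 unit below CON at none of them (0.545% over all).

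Of the 61 probe sets, 40 had 1 gene, and 11 of these belong to the list of pollen pectin enzymes and inhibitors, itself chosen with results of these data known. The summed intensity of the late pollen list, none of whose members is in the class, was 205.2 and 319.7 in HET, against 364.9 and 405.2 in T13, 638.1 and 876.3 in T14 and 937.1 and 725.7 in CON, and its part in the class was not tested. The sperm cell list, with 1 named probe set, was near 0 in HET and T13 (2.3 and 2.4 against 3.2 and 2.4). The pectate lyase AT59, which cuts pectin, had 6 and 7.6 in HET, against 35.5 and 28.8 in T13, 45.7 and 92 in T14 and 125.9 and 113 in CON. HET lay at 5.69% of CON and T13 at 26.9%, and HET minus T13 was -1.08. The pectinesterase AT5G07430 had 60 and 75.5 in HET, 138.3 and 150.6 in T13, 306.6 and 468.1 in T14 and 429.9 and 485.3 in CON. The pectinesterase AT3G05610 had 25.7 and 29.4 in HET, against 76.6 and 55.9 in T13 and 220.2 and 238.8 in CON. At both genes HET was below T13 and T13 below T14, with no overlap between those groups. RALFL26, a RALF-like signalling peptide, had 28.4 and 36.7 in HET, against 80.5 and 68.1 in T13, 134.6 and 207.6 in T14 and 231.6 and 245.3 in CON, a HET minus T13 of -0.90.

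At the other named members of this class, too, HET lay below T13 and T13 below CON. AT3G62710, a glycosyl hydrolase, had 64.7 and 90.2 in HET, against 164.3 and 135.4 in T13 and 526.7 and 377.6 in CON. AT1G35490, of the bZIP transcription factor family, had 13.5 and 12.8 in HET, against 31.2 and 45.1 in T13 and 151 and 126.6 in CON. AT1G78460, of the SOUL heme-binding family, had 25 and 34.8 in HET, against 58.1 and 83.1 in T13 and 296.7 and 274.7 in CON. AT5G50830, AT4G27580 and AT1G19500 had HET minus T13 of -1.02, -0.88 and -0.94. Over all 61 probe sets HET minus T13 ran from -1.10 to -0.15, and 40 had an unadjusted p under 0.05, a count the class rule favours. At the edge of the class, AT5G61720 was just called in T13 (limma adjusted p = 0.0477) and AT5G62750 was just not (limma adjusted p = 0.0512), with HET minus T13 of -0.34 and -0.41.

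The median HET minus T13 of the members was -0.63, and -0.56 without HET replicate 1, where the class rule itself fixes the direction. With the GAPDH covariate 58 stayed below 0 (median -0.40) and with the scanner background 59 (median -0.70). The number in the class followed the calls in T13: it was 20 without CON replicate 1, 13 without CON replicate 2, 31 without T13 replicate 1 and 18 without T13 replicate 2.

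**Figure D2:**
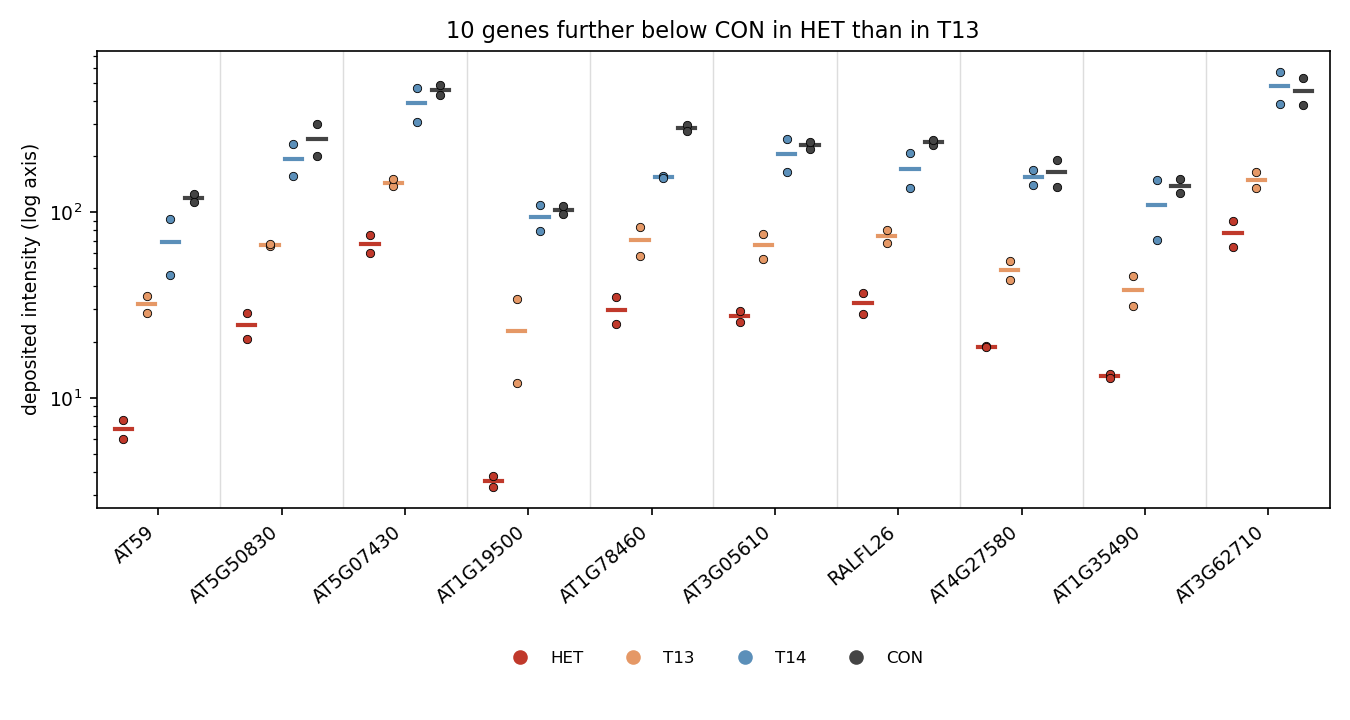
Deposited intensity on a log axis (y) for 10 genes of the first class (x), those with the largest HET minus T13. Each point is an array and each bar the mean of 2 arrays, in the order HET, T13, T14, CON; at AT59 the HET arrays read 6 and 7.6, against 35.5 and 28.8 in T13.

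The remaining 27 of the 88 probe sets had no separation downward. Their median HET minus T13 was -0.11, and HET and T13 stood at 22.5% and 24.0% of CON. Conversely, 69 probe sets were called lower in HET and not in T13. At 60 of the 69, T13 was also at least 0.5 log2 units below CON, and at 9 it was within 0.5. The HET and T13 differences from CON share the CON arrays, so part of this likeness is built in. The same share over all kept probe sets was not counted. The 7 called higher in HET and not in T13 had T13 within 0.5 of CON at 5.

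The second class held genes shifted in T13 by at least 1 log2 unit from CON at which HET lay back by at least 0.5 of that shift. Of 204 probe sets shifted this far in T13 with arrays apart (1.36%), 24 met the rule. These were 15 of the 185 lower in T13 and 9 of the 19 higher in T13. Over all kept probe sets, both HET arrays lay above both T13 arrays at 16.8% and below both at 26.3%. The rule also asks for a size of the return, which those shares do not. T13 values chose the members and enter the difference, so the return is a description with no test. Median levels of the 15 low in T13 were 102% of CON in HET, 33.3% in T13 and 53.1% in T14, and those of the 9 high in T13 were 121% in HET, 289% in T13 and 184% in T14. AT5G55070, which belongs to the 2-oxoglutarate dehydrogenase complex of the tricarboxylic acid cycle, had 234.3 and 200.2 in HET, against 72.6 and 10.8 in T13, 114.1 and 87 in T14 and 189.2 and 207.3 in CON. HET overlapped CON and lay above T13 by 2.26. T13 replicate 2 was the lowest array, and without T13 replicate 1 the difference was 3.118 and passed in limma, with the lone T13 array taken to vary like the other groups.

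AT5G01080 was the reverse case and the 1 probe set called higher in T13. This beta-galactosidase-related gene had 22.3 and 7.8 in HET, against 88.5 and 191.3 in T13, 12.9 and 9.3 in T14 and 22.5 and 5.9 in CON. T13 alone was high, and HET minus T13 was -2.29. AT1G48610, an AT-hook protein, had 81.3 and 63 in HET, against 11.7 and 7 in T13, 32.7 and 58.1 in T14 and 31 and 70.8 in CON. Both T13 arrays were below the other 6, and HET minus T13 was 1.80. AT5G02570, a histone H2B, had 65.3 and 19.4 in HET, against 6.2 and 5.9 in T13, 32.4 and 32.8 in T14 and 85.6 and 37.1 in CON, again with T13 lowest.

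For a pair of abundant members of this class T14 was low together with T13. GSTU20, a glutathione S-transferase, had 732.2 and 324.1 in HET, against 222.6 and 197.7 in T13, 175.7 and 209.1 in T14 and 548.9 and 381.7 in CON. AT2G20870 had 2720 and 1981.1 in HET, against 1381.8 and 548.8 in T13, 934.6 and 598.7 in T14 and 1909.5 and 1802.2 in CON. HET overlapped CON at GSTU20 and lay above it at AT2G20870, where HET minus T13 was 1.40. OCT1, an organic cation transporter, had 106.8 and 114.8 in HET, against 339.7 and 139.9 in T13 and 106.2 and 59.8 in CON. The last named members were AT5G55580 of the mTERF family, AT1G32840 and AT1G13730, with HET minus T13 of -1.13, -1.03 and 0.92. AT5G55580 was the member nearest the limit (T13 minus CON 1.04), and AT2G45600 was just outside it (-0.99).

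This class rested on dim values and on T13. Its count was 81 with a pseudocount of 1 and 11 with 32, 212 without T13 replicate 1, 65 without T13 replicate 2 and 73 without CON replicate 2. With the GAPDH covariate the median HET minus T13 of the 15 low in T13 was 0.61 in place of 1.16, and 1 of the 15, AT1G13730, turned to -0.69.

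The third class held genes called in HET against CON at which T13 lay within 0.5 log2 units of CON and the HET and T13 arrays were apart. It had 14 members (0.0931%), 9 lower and 5 higher in HET than T13, of which 8 were annotated to 1 gene. HET enters both differences, so no test of the class is given. 2A6, of the 2-oxoglutarate-dependent dioxygenase family, had 22.1 and 31.5 in HET, against 84.7 and 108.8 in T13, 24.7 and 37.8 in T14 and 92 and 75.8 in CON. T13 lay at 115% of CON, HET overlapped T14, and HET minus T13 was -1.40. AT1G65370, of the TRAF-like family, had 63.7 and 99.8 in HET, against 206.7 and 266.6 in T13, 108.2 and 94.8 in T14 and 438.6 and 244.4 in CON. AT1G21770 had 57.2 and 98.6 in HET, against 173.8 and 195.7 in T13, 66.7 and 93.4 in T14 and 292.3 and 189.7 in CON. AT1G17540 differed from these in T14, with 17.4 and 26.9 in HET, 55.8 and 56.4 in T13, 69 and 97.8 in T14 and 79.4 and 65.9 in CON.

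Of the 4 higher members with 1 gene, 3 had T14 below CON. ATA27, a beta-glucosidase of the tapetum, had 568.7 and 407.8 in HET, against 232.1 and 220.1 in T13, 62.9 and 71.9 in T14 and 207.2 and 209.9 in CON. It rose in HET against CON (1.15, limma adjusted p = 0.0187), T13 lay 0.11 above CON, and HET minus T13 was 1.04 (SE 0.208, limma adjusted p = 0.357). AT5G48210 had 419.5 and 298.2 in HET, against 181.3 and 188.7 in T13, 63.9 and 58.6 in T14 and 133.2 and 159.5 in CON. AT5G16920 had 143.5 and 149.3 in HET, against 93.9 and 96.4 in T13, 38.3 and 40.5 in T14 and 62.7 and 69.1 in CON. At ATA27, AT5G48210 and AT5G16920 no 2 groups overlapped, and the order from high to low was HET, T13, CON, T14. AT5G20700, at the limit of the class (T13 minus CON 0.46), had 817.5 and 740.1 in HET, 558.4 and 409.7 in T13, 631.6 and 440.1 in T14 and 362.1 and 324.3 in CON, while AT1G73490 was just outside (-0.55).

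T14 was at least 1 log2 unit below CON at 8 of the 14 members, 5 of the 9 that were lower in HET and 3 of the 5 that were higher, beside 0.545% over all kept probe sets. These T14 and HET differences share the CON arrays. Of the 8 members annotated to 1 gene, whatever their T14 level, 5 lie on chromosome 1, which carried 26.4% of the kept genes. In the first class 5 of 40 genes lie there. Another 15 of those 40 (37.5%) lie on chromosome 3, the chromosome of TCP14, which carried 20.3% of the kept genes. The class followed the HET and CON arrays closely: it had 4 members without HET replicate 1, 0 without CON replicate 1, 2 without CON replicate 2, 1 with the scanner background as covariate and 0 with the GAPDH ratio. The 4 found without HET replicate 1 were not all among the 14. HET minus T13 kept its sign at all 14 with the background and with the GAPDH ratio as covariate.

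**Figure D3:**
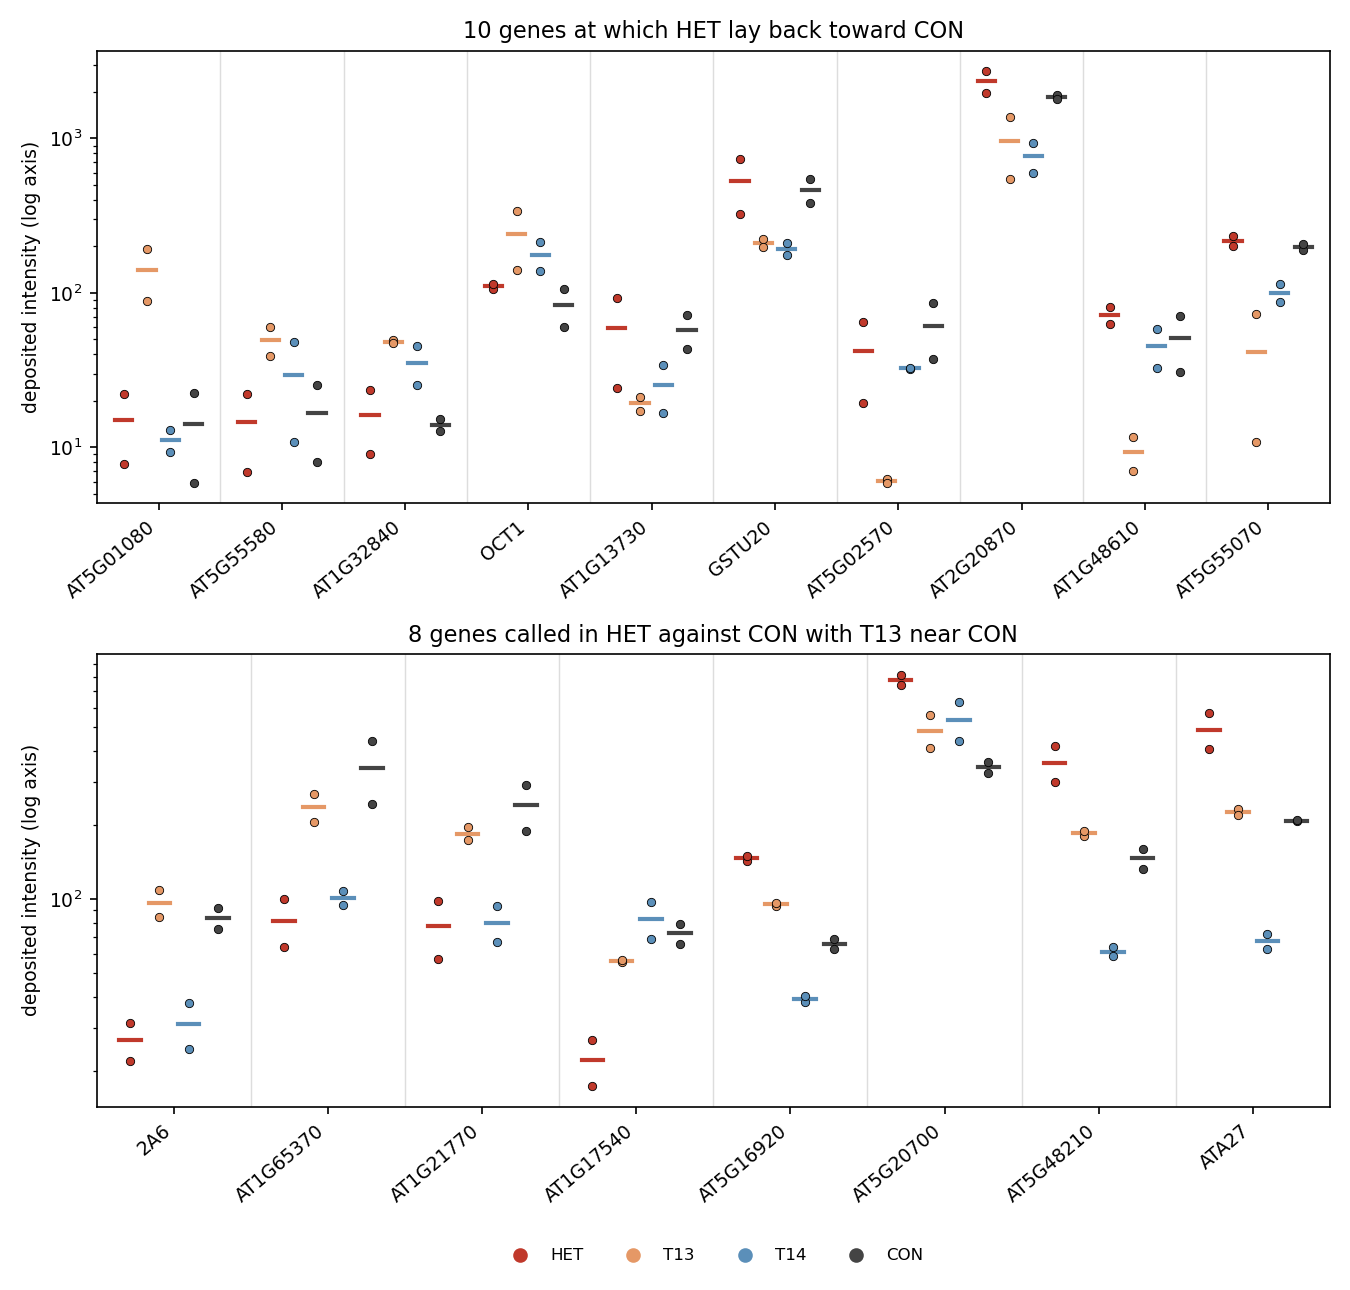
Deposited intensity on a log axis (y) for 10 genes at which HET lay back toward CON (upper panel) and 8 genes apart from CON in HET with T13 near CON (lower panel). Points are arrays and bars means of 2 arrays, in the order HET, T13, T14, CON; at ATA27 HET read 568.7 and 407.8, T13 232.1 and 220.1 and T14 62.9 and 71.9.

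**Figure D4:**
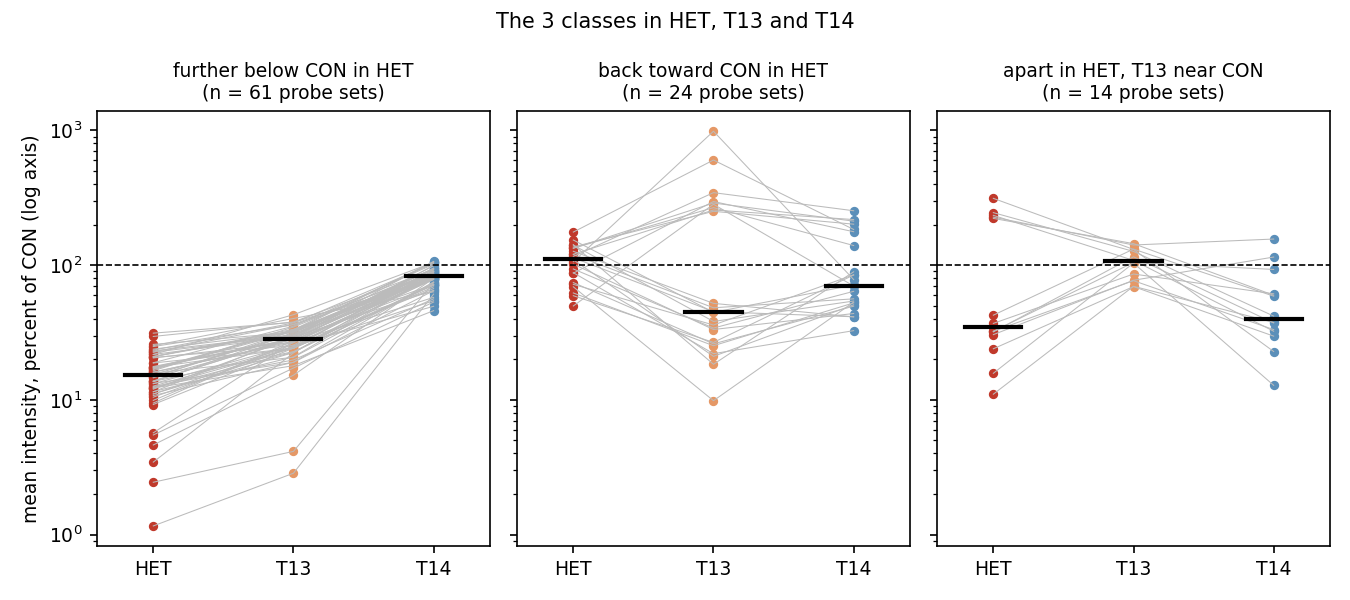
Mean intensity of each class member as a percent of the CON mean (y, log axis) in HET, T13 and T14 (x), with a grey line per probe set and a black bar at the median. Medians in HET, T13 and T14 were 15.4%, 28.4% and 82.4% in the first class; the bars of the second and of the third pool members that go opposite ways, and in the third the median in HET was 31.9% for the 9 lower than T13 and 234% for the 5 higher.

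Whole gene lists, chosen with earlier results of these data known, were then compared as a description. All 17 kept pollen pectin enzymes and inhibitors had lower values in HET than T13 (57.6% over all kept probe sets). Of these, 15 had the arrays apart (26.3% over all) and 9 an unadjusted p under 0.05 (6.04% over all), and none passed after adjustment. Their median HET minus T13 was -0.57, beside -0.06 over all kept probe sets, and -0.47 without HET replicate 1. Their summed intensity was 854.4 and 920.1 in HET, against 1553.3 and 1438.2 in T13, 3184.4 and 4562.6 in T14 and 4471.5 and 4714.2 in CON. All 9 kept late pollen and pollen tube genes, out of 15 with a named probe set, had lower values in HET, 3 with the arrays apart (26.3% over all kept probe sets), with a median of -0.40. Without HET replicate 1 that median was -0.08, so the lower level of this list was seen mainly on HET replicate 1. With the GAPDH covariate, which is highest on the same array and so no separate check, the median was 0.22. AT2G15880 read -1.43 without that array, and AT2G21480, with 16.6 and 18.6 in HET and 23 and 34.1 in T13, read -0.35 beside -0.40 with all arrays. AT4G39110, a receptor kinase of the pollen tube, had 6.6 and 24.5 in HET and 37.2 and 30.7 in T13 (-0.72, and -0.30 without HET replicate 1). The extensin AT3G19020 had 3.7 and 31.8 in HET and 24.7 and 38.2 in T13 (-0.61, and 0.025 without HET replicate 1).

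Tapetum genes were mixed. Of 9 kept tapetum, exine and pollen coat genes, 6 had higher values in HET, 3 with the arrays apart (16.8% over all kept probe sets) and 2 at an unadjusted p under 0.05 (3.88% over all). The other 3 had lower values, among them AMS, a regulator of tapetum development, with 39 and 44.9 in HET and 45.3 and 47.4 in T13. The median was 0.41, or 0.08 without HET replicate 1. Their summed intensity over 14 named probe sets was 2690.8 and 2062.7 in HET, against 1707.8 and 1745.6 in T13, 844.4 and 947.6 in T14 and 1698.9 and 1487.6 in CON. The HET sums were the 2 highest of the 8. SHT, which builds the spermidine conjugates of the pollen coat, had 145.6 and 90 in HET, against 68.8 and 36.6 in T13, 19.4 and 31.4 in T14 and 45.3 and 37.6 in CON, a difference of 0.97 (SE 0.294, limma adjusted p = 0.455). The lipase AT1G75880 had 124.1 and 50.8 in HET and 50.9 and 44.2 in T13, and its difference of 0.61 was 0.07 without HET replicate 1.

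Expansins, which loosen cell walls, were split. Of 10 kept members 7 had higher values in HET, 4 with the arrays apart (16.8% over all kept probe sets), with a median of 0.42, or 0.07 under the GAPDH covariate. EXPA4 had 312.4 and 183.2 in HET, against 112 and 98.1 in T13, 152.3 and 66.6 in T14 and 160.8 and 141.6 in CON, so HET lay above CON and T13 below it. EXPB3 had 441.8 and 192.9 in HET and 198.3 and 102.5 in T13, and EXPA15 had 705.1 and 519.2 in HET and 494.2 and 254.3 in T13. EXPB5, a beta-expansin in the first class, had lower values, at 47.2 and 52.5 in HET and 62.9 and 59.8 in T13, against 181.9 and 204.6 in CON.

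Photosynthesis genes of the nucleus and genes of the chloroplast genome had medians of opposite sign, except with the GAPDH covariate, where both were above 0 (0.21 and 0.13). Of 5 kept nuclear photosynthesis genes 4 were higher in HET with the arrays apart (16.8% over all kept probe sets). An unadjusted p under 0.05 was seen at 1 (3.88% over all), and the median was 0.32, or 0.29 without HET replicate 1. RCA, the rubisco activase, had 3139.5 and 3162.2 in HET, against 2420.9 and 1922.1 in T13 and 2314.2 and 2405.2 in CON, with T14 spread over 3396 and 2416.4. PRK, the phosphoribulokinase of the Calvin cycle, had 1015.7 and 868.1 in HET and 675.3 and 745.6 in T13. Of 69 kept probe sets of the chloroplast genome, 65 were lower in HET (57.6% over all kept probe sets), with a median of -0.61. The arrays were apart at 49 (26.3% over all), and 36 had an unadjusted p under 0.05 (6.04% over all). The chloroplast ribosomal protein gene rpl32 had 813.4 and 1062.7 in HET, against 1688.1 and 2352.4 in T13, 1350.5 and 2279.3 in T14 and 1355.9 and 1490 in CON. The NDH complex gene ndhH had 93.4 and 200.6 in HET and 281.1 and 330.8 in T13, and ndhF had 33.8 and 109.2 in HET and 121.3 and 392.2 in T13. In each of these 3 genes HET replicate 1 was the lowest of the 8 arrays. Without it the median of the 69 was -0.25, and with the GAPDH covariate it was 0.13.

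**Figure D5:**
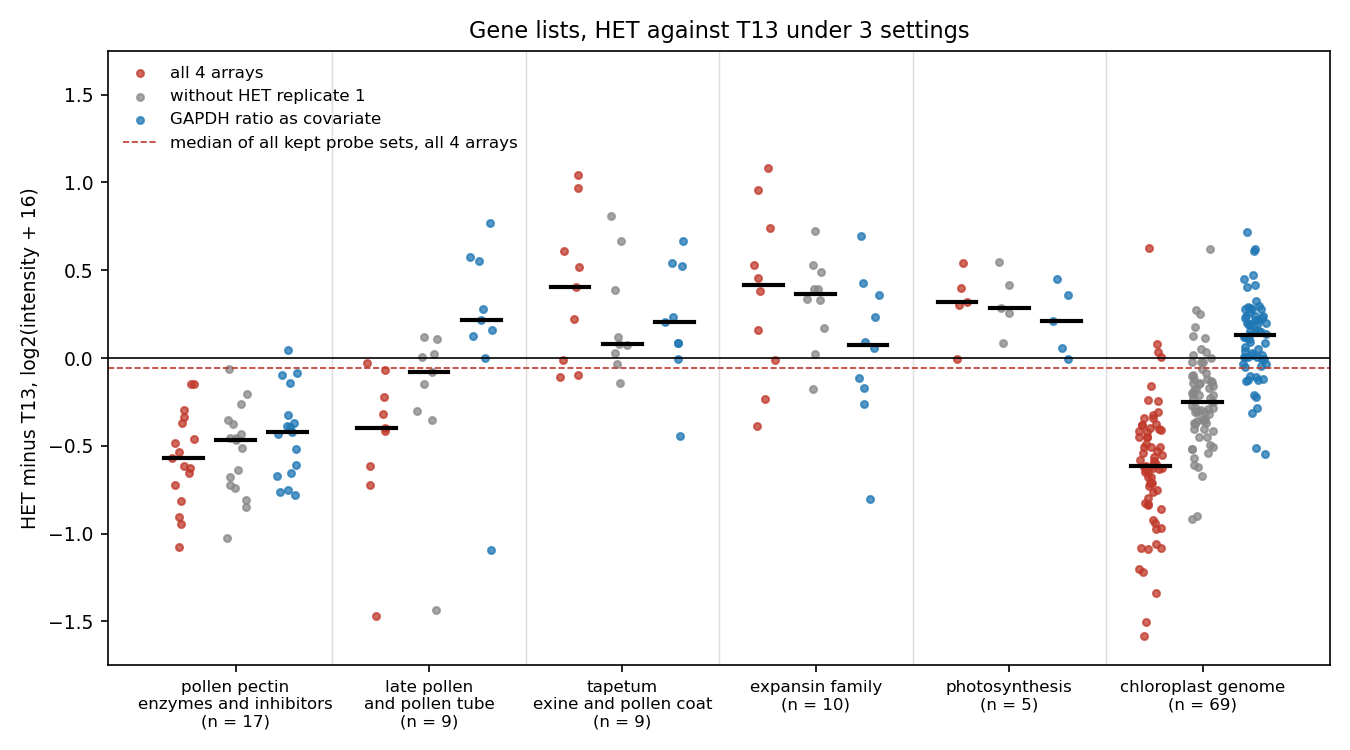
HET minus T13 on the log2(intensity + 16) scale (y) for the kept members of 6 gene lists (x), with all 4 arrays of the 2 groups, without HET replicate 1 and with the log2 GAPDH ratio as a covariate. Points are genes, black bars medians and the dashed line the median of all kept probe sets (-0.06); the pollen pectin list had medians of -0.57, -0.47 and -0.42, and the chloroplast genome -0.61, -0.25 and 0.13.

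In the other lists, too, no kept member passed. Both HET arrays lay below both T13 arrays at 2 of 5 auxin and 1 of 2 cytokinin genes (26.3% over all kept probe sets). The same held at 1 of 2 flavonoid and 1 of 3 gynoecium and ovule genes. They lay above both at 1 of 5 cell division genes and at the 1 ethylene gene (16.8% over all). The 5 kept auxin genes had a median of -0.22, which was -0.62 without HET replicate 1 and -1.36 with the GAPDH covariate. The 2 cytokinin genes had a median of -0.19 and the 2 gibberellin genes 0.01. GH3.3, which conjugates auxin, had 40.9 and 26.5 in HET and 52 and 46.5 in T13, and both groups were below CON at 99 and 199.7. AT1G12010, of the ethylene synthesis and response list, had 69.2 and 117.4 in HET, against 52 and 51.2 in T13, 50.7 and 8.8 in T14 and 8.5 and 4.6 in CON (HET minus T13 0.66). DFR, an enzyme of anthocyanin synthesis, had 32 and 44.8 in HET, against 69.4 and 75.5 in T13 and 112.2 and 114.7 in CON, a difference of -0.71. The 5 cell division genes had a median of -0.14, and among them the Aurora kinases AUR1 and AUR3 overlapped between HET and T13. A further Aurora kinase, AUR2, was slightly higher in HET (70.9 and 77.7) than in T13 (70 and 70.3), a difference of 0.07. The 3 gynoecium and ovule genes had a median of -0.20, with ALC, a regulator of fruit opening, at 306.5 and 319.5 in HET and 348.7 and 394.7 in T13. The 3 stress genes had a median of -0.02, which was -0.52 with the GAPDH covariate and -0.28 with the scanner background. The root list, 2 named probe sets of which none passed the filter, summed to 26.8 and 36.7 in HET and 35.8 and 64.4 in T13, and the sperm cell list had 1 such probe set. No gene of the jasmonate or seed storage lists had a named probe set.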

How the data were processed

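The deposited table holds a linear intensity from the authors for each of 22810 probe sets per array (summary software: not given in the sources used here). With 2% trimmed at each end, every array averaged 100.01, so no further scaling was applied. Medians per array ran from 51.35 to 59.5. Precision is limited by the number of arrays. Gene names are those of the platform annotation, with symbols updated through RefSeq (TAIR10.1). A single gene was annotated for 13513 of all probe sets (13436 matched a locus tag), several genes for 503, and 8794 stay unnamed here. Values were log2(intensity + 16). Control probe sets were dropped, and the filter required 2 or more arrays at or above that array's 40th percentile, leaving 15045. Log2 differences understate the change of dim genes. All 8 arrays entered 1 model in limma 3.58.1 (R 4.3.3; lmFit and trended eBayes), with 4 residual and 7.39 prior degrees of freedom, Benjamini-Hochberg adjustment over all kept probe sets and a threshold of 0.05. The fit was tested on simulated data, in which arrays differed only by random spread and by changes set on the fitted scale. It called 42 of 100 probe sets changed 2-fold in HET and 95 of 100 changed 4-fold, with 5 false calls. Many 2-fold differences could therefore be missed. Percents of CON are on the linear intensity.

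Arrays were grouped by the labels. Replicates were numbered in accession order and are not paired. The members and gene lists were chosen with earlier results of these data known. The named genes were TCP14 and TCP15, then, from kept probe sets of 1 gene, the 10 largest differences each way between HET and T13 with an unadjusted p under 0.01 and arrays apart, the 10 largest of each class, and for each list the 3 kept members of smallest p. EXPB5, UFO, AT2G21480, AMS, AUR2 and genes at the class limits were named after their values were seen. Gene families were limited to the expansins and the chloroplast genome, because the annotation used here held names and no descriptions. Alternatives were the pseudocount (1, 32), the filter (none, 60th percentile), quantile normalization, median centring, no trend, array weights, the GAPDH ratio or scanner background as covariate, a fit of the HET and T13 arrays alone or without T14, and leaving out each array. No promoter was analysed here. Plots used matplotlib 3.10.9.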

Additional observations from a re-analysis of the deposited data

Results flagged for a closer look

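On HET replicate 1 the GAPDH 5′ signal over its 3′ signal was 0.345, a signal of the control probe sets above the level in both CON arrays (0.0860 and 0.129). HET replicate 2 read 0.127, and the T13 arrays read 0.0760 and 0.0639.

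At 7 named genes both HET arrays lay on one side of both CON arrays and both T13 arrays on the other. None of these differences between HET and T13 passed in limma. HET was below CON and T13 above it at AT2G23700 (HET minus T13 -1.24), with 9.1 and 12.3 in HET, 54.8 and 40.1 in T13 and 34 and 34.4 in CON. The same held for 3 chloroplast genes, rpl32 (-1.09), ndhH (-1.06) and rps14 (-0.97), at which HET replicate 1 was the lowest of the 8 arrays and which read -0.90, -0.57 and -0.62 without it. HET was above CON and T13 below it at EXPA4 (1.08), AT5G17780 (1.21) and AT2G20870 (1.40). With the GAPDH covariate AT2G23700 read -1.08, EXPA4 0.24, AT5G17780 0.95 and AT2G20870 0.68.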

How the results depend on the processing

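No probe set was called between HET and T13 under 11 of 12 alternatives that kept all HET and T13 arrays and left out no single array, 1 was called without the intensity trend, and the range over left-out arrays was 0 to 2. Median centring gave 457 lower and 1062 higher at an unadjusted p under 0.05, the scanner background covariate 451 and 208, the GAPDH covariate 135 and 76, and left-out arrays 299 to 1176 lower and 126 to 847 higher. The first class had 32 members with no filter and 13 to 73 over left-out arrays. The second had 81 with a pseudocount of 1, 11 with 32, 42 with no filter, 10 at the 60th percentile and 22 to 212 over left-out arrays. The third had 5 with no filter, 1 with the background covariate, 0 with the GAPDH covariate and 0 to 19 over left-out arrays. For the named genes, 1331 of 1375 values under alternatives kept their sign, and 44 values of 20 genes reversed. With the GAPDH covariate these were ndhF 0.007, AT4G39110 0.124, AT3G19020 0.770, ARR15 0.175, COR47 0.354, SPT 0.175, SPY 0.049, TCP15 0.017, UGT78D2 -0.681, COR15A -0.604, AT1G75880 -0.446, AT1G13730 -0.688 and EXPB3 -0.261. With the background covariate they were SPT 0.087, AUR1 0.217, SPY 0.281, GID1A -0.211 and UGT78D2 -0.136. Median centring reversed INO (0.009), SPY (0.090), COR15B (0.110) and TCP15 (0.121), and quantile normalization SPY (0.020) and TCP15 (0.003). Over left-out arrays the ranges that crossed 0 were AT3G19020 -1.253 to 0.025, AUR1 -0.41 to 0.126, AUR3 -0.739 to 0.051, COR15A -0.001 to 0.831, COR15B -0.114 to 0.079, COR47 -0.988 to 0.437, GID1A -0.059 to 0.153, INO -0.371 to 0.161, RR16 -0.038 to 0.056, SPT -0.553 to 0.145, SPY -0.183 to 0.12, TCP15 -0.114 to 0.106, UGT78D2 -0.126 to 0.456 and YUC2 -0.386 to 0.056. Their causes were not tested. No paired analysis was possible because replicate numbers followed accession order. Promoter motifs were not run. Signal near the pseudocount limits dim probe sets.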
